A study of Mus musculus with 3 samples.

Results

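The cyclins, cyclin-dependent kinases (CDKs), pocket proteins and E2F factors described here are 44 genes that drive or restrain the cell cycle. They were chosen by name, and all 44 are among the 21782 genes of the count table. Wild-type (WT) mouse embryo fibroblasts (MEFs) came from embryos at stage E12.5 and were grown unsynchronised in DMEM with 20% fetal bovine serum, and RNA with a polyA tail was sequenced from 3 clones, 1 library each. The labels name no other allele and no treatment, so 1 condition was measured, and the values below describe levels and the differences between clones. With 1 library per clone, a clone cannot be told apart from its culture or its library.

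In G1, D-type cyclins activate CDK4 and CDK6, which phosphorylate the pocket proteins RB1, p107 and p130 and so release E2F factors. Cyclin E with CDK2 then carries the cell into S phase, and cyclin A and cyclin B with CDK1 carry it through G2 into mitosis. The MuvB core works as a switch: with p130 and E2F4 it represses cell cycle genes in resting cells, and with B-Myb and FOXM1 it activates the genes of G2 and mitosis. MEFs divide for a limited number of passages in culture before they stop. The members were grouped by phase from textbook roles: 13 in G1, 15 at the G1/S transition, 12 in G2/M, and 4 tied to no single phase. These 4 are the CDK-activating kinase subunits Ccnh and Cdk7, and the MuvB subunits Lin9 and Lin54. Rbl1 was placed at G1/S as a known E2F target, apart from Rb1 and Rbl2. Mybl2 was placed there although its product, B-Myb, activates genes of G2 and mitosis.

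Total counts ranged from 22594316 to 25261357 per library, and the factors that scale the libraries (TMM) from 0.984 to 1.02. Levels are given as counts per 1000000 counts (CPM) after this scaling, and 3 counts, the most that a count of 0 allows, correspond to 0.119 to 0.133 CPM. Of the fibroblast markers, 8 of 8 listed genes were expressed, with summed levels of 56790, 47169 and 45747 CPM in clones 1, 2 and 3. Col1a1 alone gave 32052, 25940 and 25148 CPM of these sums. Pdgfra stood at 11.8, 27.3 and 16.8 CPM and Dcn at 10.4, 7.67 and 5.15 CPM. While 5 of the 8 were highest in clone 1, Thy1, Pdgfra and Vim were highest in clone 2. The epithelial markers Epcam and Cdh1 had 1 to 5 counts in any clone, and the endothelial markers Cdh5, Tek and Pecam1 2 to 15. The other genes of these lists were higher, with 6, 9 and 28 counts for Krt8, 69, 67 and 134 for Krt18 and 163, 214 and 314 for Kdr. Krt18 and Kdr differed between the libraries by the test described below, were lowest in clone 1 and highest in clone 3, and were 1.91-fold and 1.89-fold apart. Their part in the results on the members was not tested. Macrophage markers stood apart in clone 2: the 7 of 8 listed genes found in the table were all highest there, and their summed levels were 283, 1246 and 232 CPM in clones 1, 2 and 3.

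Of the 44 members, 43 reached 1 CPM in every clone, against 52.2% of all listed genes. The exception was Cdkn2d, which encodes the CDK4/6 inhibitor p19-INK4d and had 13, 10 and 6 counts in clones 1, 2 and 3. Its level of 0.401 ± 0.147 CPM (SD, n = 3 clones) was above the limit that a count of 0 allows, and it was too low to be tested between clones. The mean level of the other members ran from 2.06 CPM for E2f2 to 646 CPM for Ccnd2, with a median of 25.8 CPM. This was close to the 24.2 CPM of the 11721 tested genes that had a mean of 1 CPM or more.

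The clones were compared with a chi-square test of the 3 counts of each gene against the library sizes, over the 12218 genes that had 10 counts or more in each clone. A gene passed at a Benjamini-Hochberg adjusted p below 0.05 over these genes. The test compares libraries, not conditions. It called 37 of the 43 tested members as differing, against 62.5% of all tested genes. A stricter rule also asked for CPM to be 2-fold or more apart between the extreme clones, and by it 10 of 43 members were called, against 7.93% of all tested genes. All 10 were lowest in clone 1, a pattern that 3.08% of all tested genes showed, and none of the 10 belonged to G1 as grouped here. Rbl1 was among the 10, so the absence of G1 members depends on its placing. Regardless of size, 35 of 43 members had their lowest level in clone 1, against 39.4% of all genes, and 30 had their highest level in clone 2, against 35.2%.

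The median difference between clones grew from G1 to G2/M. Each member's log2(CPM + 1) was set against its own mean over the clones, and the median of these deviations was taken for each phase. The G2/M members stood at -0.51, 0.40 and 0.16 in clones 1, 2 and 3. The G1/S members stood at -0.44, 0.27 and 0.10 in the same order, so the clones kept the same order at G1/S with smaller distances. The G1 members stood at -0.13, 0.00 and 0.07, and the 4 members of no single phase at -0.13, 0.11 and 0.05. From the lowest to the highest clone, the medians were 1.87-fold apart in G2/M, 1.64-fold at G1/S and 1.15-fold in G1. The median deviation of the tested genes with a mean of 1 CPM or more moved by 0.01 on the log2 scale. The step from G1/S to G2/M was one of medians. At 2-fold, 6 of 15 G1/S members and 4 of 12 G2/M members were called, against 7.93% of all tested genes. The largest fold was 3.60 at G1/S and 2.44 in G2/M. Whether fewer cells of clone 1 were cycling or each cycling cell held less of these RNAs cannot be told apart in bulk RNA. The members Mki67, Top2a, Ccnb1 and Cdk1 were already known from an earlier look at these libraries to be lowest in clone 1, so the direction is not an independent finding for them.

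**Figure D1:**
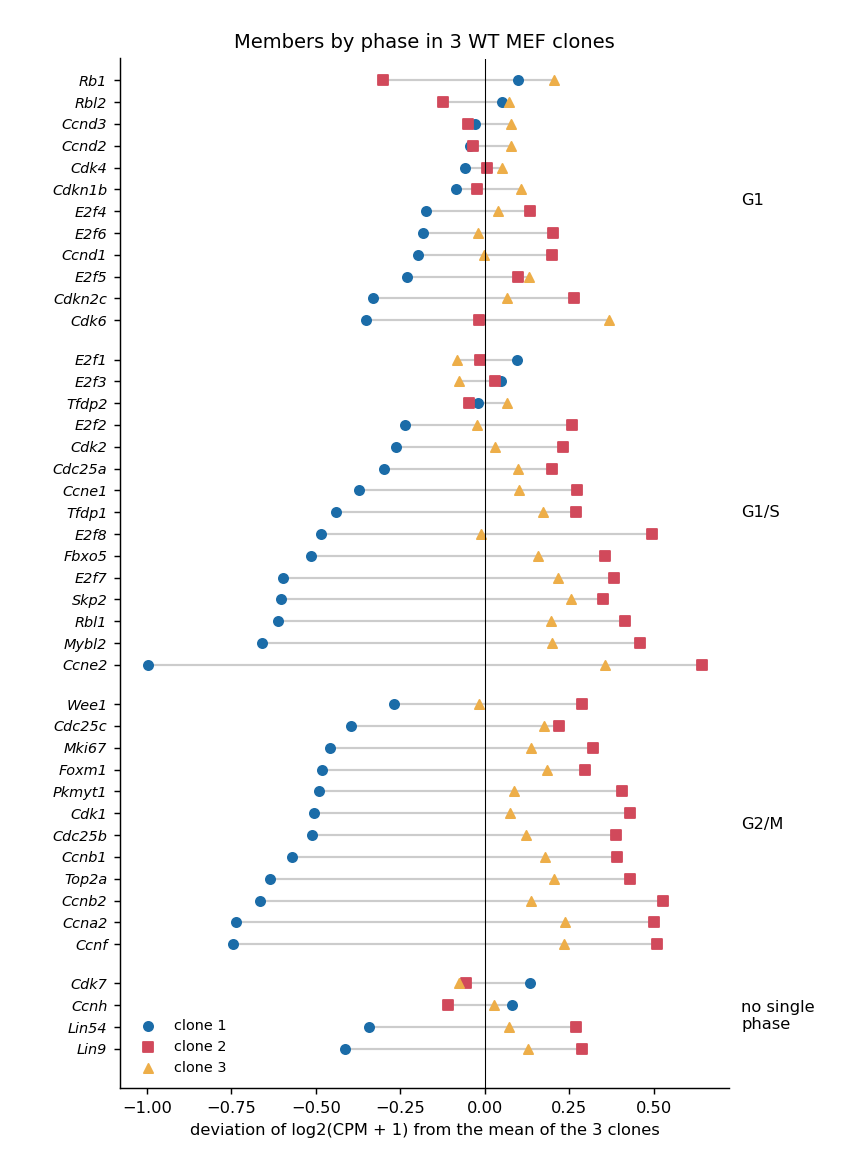
Deviation of log2(CPM + 1) of each member from its mean over the 3 clones (horizontal axis), for the 43 members at 1 CPM or more, grouped by phase, with 1 symbol per clone and a grey line over the range. In all 12 G2/M members clone 1 is the lowest and clone 2 the highest, whereas the G1 members Ccnd2, Ccnd3 and Cdk4 lie close to 0 in every clone.

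Among the G1 members, Cdk4, Ccnd2 and Ccnd3 had the smallest spread between clones, with coefficients of variation of 3.85%, 4.76% and 4.87%. Per kb of annotated exon, the scale on which genes are compared here, Cdk4 was the highest of all members at 78.5 ± 3.02 CPM per kb, followed by Ccnd2 at 68.7 ± 3.27 and Ccnd1 at 48.6 ± 6.69 CPM per kb (SD, n = 3). Cdk4 (chromosome 10, 127063534 to 127067920 in GRCm38) encodes the kinase partner of the D-type cyclins. Its counts were 6084, 5778 and 6679 in clones 1, 2 and 3, and its CPM differed by at most 1.08-fold between clones. The related kinase gene Cdk6 had 69, 85 and 132 counts, so Cdk4 took 99.6% ± 0.098 of the counts per kb of both genes. Cdk6 was also the least even G1 member that was tested, 1.88-fold higher in clone 3 than in clone 1.

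Ccnd2 (chromosome 6, 127125162 to 127152193) was the leading D-type cyclin, with 15550, 14221 and 17209 counts. It took 52.4% ± 2.72 of the family's counts per kb, Ccnd1 37.0% ± 3.38 and Ccnd3 10.6% ± 0.666. In every clone, the order was Ccnd2, Ccnd1, Ccnd3. When the counts were divided instead by the length of the longest-coding transcript of each gene, Ccnd2 still led in every clone at 46.2% ± 1.71, while Ccnd1 (27.7% ± 2.97) and Ccnd3 (26.1% ± 1.26) were no longer separated. Ccnd1 was the D-type cyclin that differed most between clones, at 198, 261 and 227 CPM. Its share of the family's counts was 21.0% in clone 1 (95% Wilson interval 20.5 to 21.5), 25.9% in clone 2 (25.3 to 26.5) and 21.9% in clone 3 (21.4 to 22.4), with only the interval of clone 2 apart from both others. Such intervals cover counting error only. Exons of an opposite-strand gene cover 23.4% of the exon length of Ccnd1 and 19.7% of that of Cdk4, and how strand was treated in the counting is not known.

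Of the CDK inhibitors in G1, Cdkn1b, the p27 gene, had 460, 437 and 538 counts and did not pass the test between libraries. Cdkn2c, which encodes the INK4 inhibitor p18, had 169, 243 and 234 counts and passed it, with CPM 1.58-fold higher in clone 2 than in clone 1. Per kb of exon, Cdkn1b stood at 4.33 ± 0.313 and Cdkn2c at 3.33 ± 0.747 CPM per kb, and Cdkn1b was the higher in all 3 clones. Per kb of the longest-coding transcript, the order turned in clone 2, with 47.7% of the family for Cdkn1b and 48.8% for Cdkn2c. Cdkn2d, at 0.255 ± 0.094 CPM per kb, and Cdk6, at 0.281 ± 0.088 CPM per kb, were the lowest members and were not separated from each other.

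The pocket protein genes changed order between clones. Rb1, the gene of the retinoblastoma protein, had 319, 214 and 351 counts in clones 1, 2 and 3. Rbl2, which encodes p130, the pocket protein of resting cells, had 495, 396 and 511 counts. Both G1 members were lowest in clone 2, and Rbl2 did not pass the test. Rbl1, which encodes p107 and is itself a known E2F target placed at G1/S, went another way, with 226, 441 and 421 counts. The share of Rbl1 in the family's counts per kb was 24.1%, 45.5% and 35.8% in the same order. Rbl1 was thus the lowest of the pocket protein genes in clone 1 and the highest in clones 2 and 3, an order that held in clone 3 only per kb of exon (per kb of the longest-coding transcript, Rbl2 had 39.0% and Rbl1 32.6% there). Over the clones it could not be separated from Rbl2 (35.2% ± 10.7 against 36.3% ± 5.00). The ratio of Rbl1 to Rbl2 counts, which needs no library scaling, was 0.457, 1.11 and 0.824 in clones 1, 2 and 3. Exons of opposite-strand genes cover 21.0% of the exon length of Rbl2 and 14.9% of that of Rb1, and none of that of Rbl1. How far reads of those genes entered the counts is not known.

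The 8 E2F genes span activators (E2f1 to E2f3), repressors that act with pocket proteins (E2f4, E2f5), a repressor that acts without them (E2f6) and the atypical repressors E2f7 and E2f8. The repressor E2f4 was the highest, at 20.8 ± 2.26 CPM per kb, and the activator E2f1 came next at 14.7 ± 0.944 CPM per kb. E2f6 (7.19 ± 0.997) and E2f3 (7.02 ± 0.333) were not separated from each other. E2f5 followed at 5.65 ± 0.826, then E2f8 at 2.49 ± 0.901 and E2f7 at 1.76 ± 0.605. The ranges of E2f8 and E2f7 over the clones overlapped, although E2f8 was the higher in each clone. E2f2 was the lowest at 0.421 ± 0.108 CPM per kb. The place of E2f6 depends on the length used: per kb of the longest-coding transcript it took 21.1% ± 0.967 of the family, beside 21.5% ± 3.13 for E2f1. The 3 E2F genes placed in G1 all passed the test with clone 1 lowest: E2f4 at 44.8, 55.7 and 52.1 CPM in clones 1, 2 and 3, E2f5 at 8.37, 10.8 and 11 CPM and E2f6 at 35.5, 46.7 and 39.9 CPM.

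**Figure D2:**
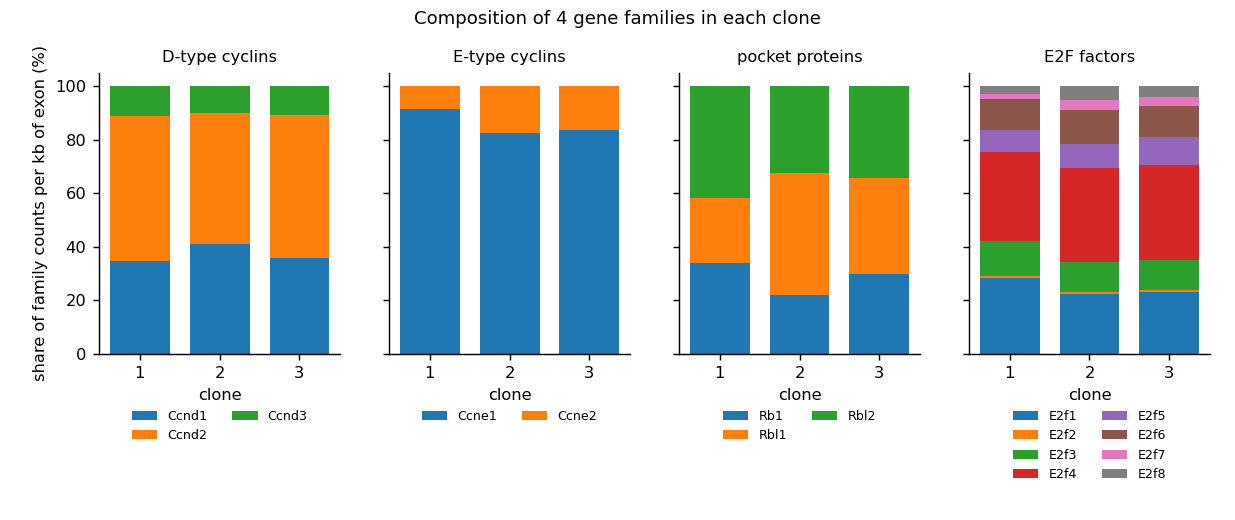
Share of each gene in the counts per kb of annotated exon of its family (vertical axis, percent) in clones 1, 2 and 3, for the D-type cyclins, the E-type cyclins, the pocket proteins and the E2F factors, with bars stacked to the whole. Ccnd2 is the largest part of the D-type cyclins in every clone, whereas the share of Rbl1 runs from 24.1% in clone 1 to 45.5% in clone 2 and that of Ccne2 from 8.52% to 17.5%.

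E2f1 and E2f3 did not share the pattern of the other G1/S members. E2f1 (chromosome 2, 154559407 to 154569892) had 1232, 1033 and 1104 counts in clones 1, 2 and 3. Its CPM was highest in clone 1 and lowest in clone 3, 1.13-fold apart, and it passed the test. E2f3 had 979, 878 and 911 counts, was also highest in clone 1, and did not pass. Tfdp2, a dimer partner of the E2Fs, was as even, at 16.5, 16.2 and 17.6 CPM, whereas its paralog Tfdp1 stood at 80.6, 133 and 124 CPM and passed the test. Tfdp1 took 96.1% ± 1.04 of the counts per kb of both partner genes, but 35.9% of the read-length stretches of its transcript also match the pseudogene Gm7390, so its count is less certain. E2f2 had 39, 59 and 50 counts and did not pass.

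The atypical E2Fs were among the 6 G1/S members called at 2-fold. E2f7, a repressor that is switched on by other E2Fs, had 240, 452 and 448 counts. E2f8 had 224, 423 and 326. Both were lowest in clone 1 and highest in clone 2, at 2.08-fold each, and E2f8 was closer to clone 1 in clone 3 (1.43-fold) than E2f7 was (1.84-fold). Set against E2f1 in the same library, the ratio of E2f7 counts to E2f1 counts was 0.195, 0.438 and 0.406 in clones 1, 2 and 3, and that of E2f8 to E2f1 was 0.182, 0.409 and 0.295. The clone with the lowest atypical E2Fs was therefore the clone with the highest E2f1.

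Ccne2 differed more between clones than any other member. It encodes cyclin E2, which with CDK2 starts S phase, and lies on chromosome 4 from 11191351 to 11204779. It had 107, 350 and 317 counts in clones 1, 2 and 3, or 4.31, 15.5 and 12.6 CPM, so clones 2 and 3 were 3.60-fold and 2.91-fold above clone 1. Its paralog Ccne1 had 875, 1255 and 1246 counts, 1.58-fold apart. Ccne1 was the main E-type cyclin, with 91.5%, 82.5% and 83.8% of the family's counts per kb in clones 1, 2 and 3. In counts, the share of Ccne2 was 10.9% in clone 1 (95% Wilson interval 9.10 to 13.0). It was 21.8% in clone 2 (19.9 to 23.9) and 20.3% in clone 3 (18.4 to 22.3). The interval of clone 1 lay apart from those of clones 2 and 3, which overlapped. Exons of Ints8 on the opposite strand cover 17.4% of the exon length of Ccne2.

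The other G1/S members at 2-fold were Mybl2, Rbl1 and Skp2. Mybl2, which encodes B-Myb, the factor that joins MuvB to activate mitotic genes, had 409, 833 and 775 counts and was 2.24-fold apart. Of its transcript, 24.2% of the read-length stretches also match transcripts of other genes. Skp2, the F-box protein that targets p27 for degradation, had 263, 483 and 505 counts, or 10.6, 21.4 and 20.0 CPM, and at 2.02-fold was the member nearest to the limit from above. Rbl1 was 2.15-fold apart. Fbxo5, the gene of the APC/C inhibitor EMI1, fell just short at 1.95-fold (166, 294 and 284 counts). Cdc25a, which encodes the phosphatase that activates CDK2, stood at 25.2, 36.1 and 33.5 CPM, and Cdk2 itself at 27.0, 38.4 and 33.3 CPM. Both passed the test with clone 1 lowest.

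**Figure D3:**
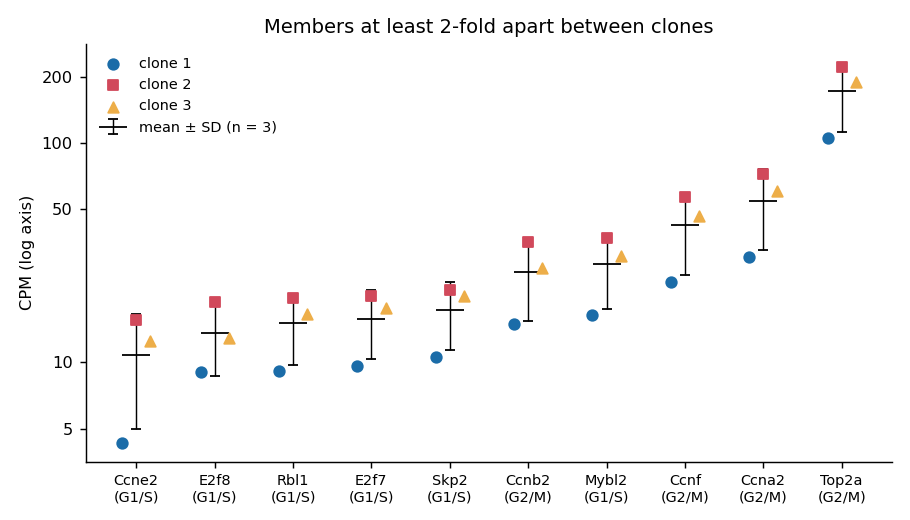
CPM on a log axis of the 10 members at least 2-fold apart between clones, with 1 symbol per clone and the mean ± SD over the 3 clones, ordered by mean level and with the phase under each name. Clone 1 is the lowest and clone 2 the highest in each of the 10, from Ccne2 (4.31 to 15.5 CPM) to Top2a (105 to 221 CPM).

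All 12 G2/M members passed the test, all 12 were lowest in clone 1 and all 12 were highest in clone 2. Their median ratio to clone 1 was 1.93 in clone 2 and 1.60 in clone 3, and every one of the 12 was also higher in clone 3 than in clone 1. Clones 2 and 3 were closer to each other, with a median ratio of 1.21. The summed macrophage marker levels were 283 CPM in clone 1 and 232 CPM in clone 3, beside 1246 CPM in clone 2, and the part of those markers in these differences was not tested.

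The cyclins Ccnf, Ccna2 and Ccnb2 had the largest differences of the group. Ccna2 (cyclin A2, chromosome 3, 36564865 to 36572150) had 750, 1634 and 1521 counts in clones 1, 2 and 3, or 30.2, 72.5 and 60.2 CPM. Ccnf (chromosome 17, 24222198 to 24251484), whose product is a ubiquitin ligase subunit and binds no CDK, had 576, 1278 and 1179 counts, or 23.2, 56.7 and 46.7 CPM. Ccnb2 (chromosome 9, 70407692 to 70421547) had 372, 799 and 678 counts, or 15.0, 35.4 and 26.8 CPM. These cyclin genes were 2.40-fold, 2.44-fold and 2.37-fold apart between clones 2 and 1. Ccnb1, the main partner of CDK1 in mitosis, had 922, 1651 and 1593 counts and stood just below the limit at 1.97-fold. Much of its transcript is shared, and 50.2% of its read-length stretches match annotated pseudogenes, so reads may have been lost or split. Per kb of exon, Ccnb2 (16.8 ± 6.71 CPM per kb) and Ccnb1 (13.7 ± 4.42) were not separated beyond the spread between clones, although Ccnb2 was the higher in each clone, and their order turned on the scale of the longest-coding transcript (41.5% ± 2.27 for Ccnb2).

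Cdk1, the kinase that starts mitosis, had 1231, 2154 and 1882 counts, or 49.5, 95.5 and 74.5 CPM (1.93-fold). Its inhibitory kinase genes differed from each other. Pkmyt1 had 414, 719 and 640 counts, and its ratio to Cdk1 counts was 0.336, 0.334 and 0.340 in clones 1, 2 and 3. Wee1 had 335, 458 and 410 counts, was the most even of the G2/M members at 1.51-fold, and its ratio to Cdk1 was 0.272, 0.213 and 0.218. The phosphatase genes Cdc25b (295, 519 and 479 counts) and Cdc25c (170, 248 and 269 counts), whose products remove these inhibitory marks, were 1.94-fold and 1.61-fold apart. Per kb of exon, Cdc25b took 44.5% ± 3.30 of the Cdc25 family and Cdc25a 37.4% ± 3.04, an order that turned to 29.6% ± 2.75 against 45.3% ± 2.87 per kb of the longest-coding transcript.

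Foxm1, the forkhead factor of the mitotic genes, had 1178, 1851 and 1916 counts and was 1.73-fold apart. Top2a, the topoisomerase that untangles sister DNA (chromosome 11, 98992943 to 99024189), had 2607, 4977 and 4760 counts, or 105, 221 and 188 CPM (2.10-fold). Mki67, the gene of the proliferation antigen Ki-67, was the most abundant G2/M member in CPM, at 132, 227 and 200 CPM (1.72-fold). Per kb of exon, Top2a (19.0 ± 6.63 CPM per kb) and Mki67 (18.5 ± 4.87) did not differ beyond the spread.

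**Figure D4:**
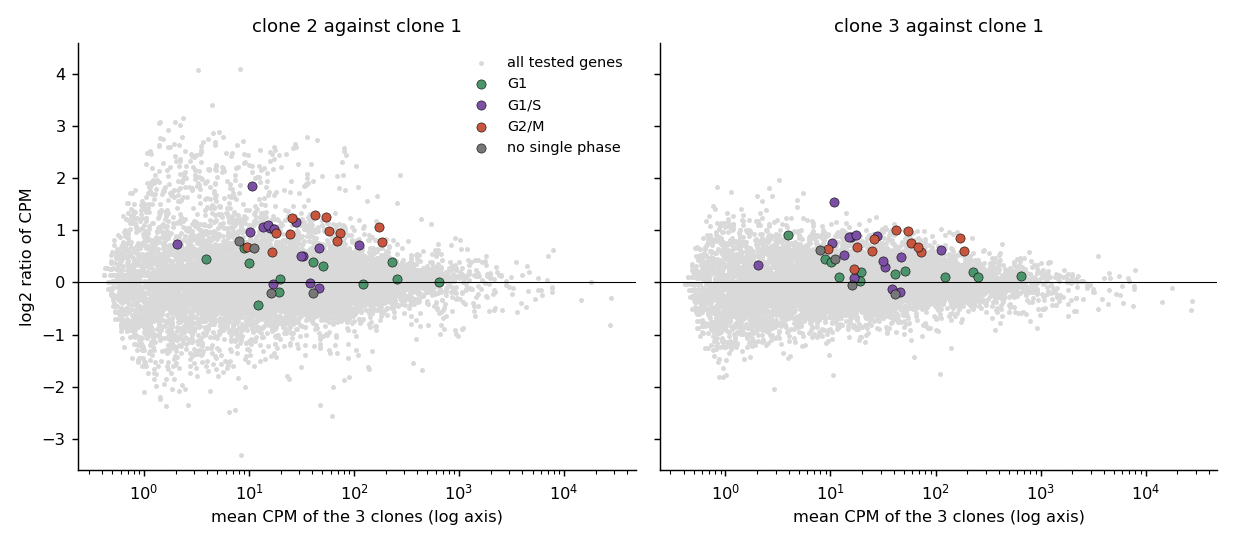
Log2 ratio of CPM in clone 2 (left) and clone 3 (right) to clone 1, against mean CPM on a log axis, for all 12218 tested genes (grey) and the tested members coloured by phase. The G2/M members lie above 0 in both panels, with median ratios of 1.93 and 1.60. The median ratio of the 11721 tested genes with a mean of 1 CPM or more was 1.01 in both.

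The members of no single phase split by complex. Ccnh and Cdk7, subunits of the CDK-activating kinase, which also belongs to the general transcription factor TFIIH, were highest in clone 1, at 17.0, 14.8 and 16.4 CPM and at 44.9, 39.2 and 38.7 CPM. Cdk7 passed the test and Ccnh did not. The MuvB genes Lin9 (139, 219 and 217 counts) and Lin54 (210, 303 and 293 counts) passed, with clone 1 lowest, at 1.74-fold and 1.59-fold.

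Promoters of the members were read from RefSeq windows of 300 bases (250 before and 50 after a transcription start, GRCm38.p6), which exist for 31 of the 44 members. They were searched on both strands for the cell cycle homology region (CHR: TTTGAA or TTCGAA, the latter identical on both strands), the element through which MuvB is known to act, for the CCAAT box (CCAAT), and for E2F motifs (TTCCCGC or TTCGCGC or TTGGCGC or TTGCCGC). The CCAAT box and the E2F motifs can overlap, and a gene was counted if any of its windows held the letters. Other spellings of these elements were not searched for, so the counts cover only the letters given. Of the 7 G2/M members with a window, 6 held a CHR, against 21.7% of the 27025 genes with a window, and 7 held a CCAAT box, against 41.1%. The 6 with a CHR also held a CCAAT box, a combination found in 9.65% of all genes. The member without a CHR in its window was Ccnb1. Of the 14 G1/S members, 5 held a CHR, 8 a CCAAT box and 8 an E2F motif, which 10.9% of all genes held. Of the 8 G1 members, 1 held a CHR, 4 a CCAAT box and 1 an E2F motif. The windows of all genes were not matched to the members in base composition. All 7 G2/M windows start within 100 bases of the gene's start in the GENCODE annotation, as do 24 of the 31 in all. The nearest windows of Cdkn2c, E2f1, Cdk6 and Tfdp2, which count in these numbers, lie 433, 466, 2408 and 62430 bases from that start. Cdkn2c is the G1 member counted with an E2F motif.

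The G2/M and G1/S members with the largest difference between clones among those with a window are shown from 250 bases before to 30 after the start, on the strand of the gene, to show the sequences of members that had the same order of clones. The motifs above are in capitals. The Ccnf window (chr17:24251380-24251659, minus strand) holds 2 CHR and 2 CCAAT boxes, with a CHR 14 bases before the start. The Ccnb2 window (chr9:70421525-70421804, minus strand) holds 2 CHR and 3 CCAAT boxes, with a CHR beginning 5 bases into the transcript. The Rbl1 window (chr2:157204505-157204784, minus strand) holds an E2F motif 17 bases before the start and neither of the other elements. In the Mybl2 window (chr2:163054385-163054664, plus strand), none of the letters searched for was found. The window holds ttggcggga, which starts like the motif TTGGCGC but was not among those letters. The lack of a hit therefore does not show that an E2F site is absent.
Ccnf: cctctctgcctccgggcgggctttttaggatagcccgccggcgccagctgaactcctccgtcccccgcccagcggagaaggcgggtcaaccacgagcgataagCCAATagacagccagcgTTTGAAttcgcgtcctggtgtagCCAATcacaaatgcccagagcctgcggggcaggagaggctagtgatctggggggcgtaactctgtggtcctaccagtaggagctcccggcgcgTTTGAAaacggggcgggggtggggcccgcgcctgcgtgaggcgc
Ccnb2: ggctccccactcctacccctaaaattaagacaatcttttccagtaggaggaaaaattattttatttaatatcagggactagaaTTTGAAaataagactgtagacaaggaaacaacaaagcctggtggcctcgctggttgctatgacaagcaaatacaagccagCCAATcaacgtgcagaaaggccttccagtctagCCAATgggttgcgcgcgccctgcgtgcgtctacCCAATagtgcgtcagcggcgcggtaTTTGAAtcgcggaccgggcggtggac
Rbl1: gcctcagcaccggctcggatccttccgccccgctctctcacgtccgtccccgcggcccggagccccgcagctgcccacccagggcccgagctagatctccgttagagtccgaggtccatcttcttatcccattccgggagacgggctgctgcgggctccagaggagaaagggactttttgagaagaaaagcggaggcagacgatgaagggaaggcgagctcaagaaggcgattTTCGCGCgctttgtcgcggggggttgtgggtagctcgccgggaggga
Mybl2: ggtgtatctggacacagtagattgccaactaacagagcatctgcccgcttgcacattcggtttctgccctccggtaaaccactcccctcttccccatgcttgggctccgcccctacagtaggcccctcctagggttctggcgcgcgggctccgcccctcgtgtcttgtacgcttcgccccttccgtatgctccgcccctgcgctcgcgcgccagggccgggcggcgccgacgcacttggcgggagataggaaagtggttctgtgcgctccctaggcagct

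Relative spread was larger in the G1/S and G2/M members than in the G1 members. The coefficient of variation of CPM over the 3 clones had a median of 31.4% in G2/M, 25.7% at G1/S and 12.3% in G1. It was 10.9% over the tested genes with a mean of 1 CPM or more. This measure uses the same CPM as the deviations above. The spread beyond counting error that edgeR estimates for each gene put G1/S above G2/M. Its median was 0.261 at G1/S, 0.235 in G2/M and 0.141 in G1, beside 0.158 over all tested genes. Without clone 1, no member was 2-fold apart between clones 2 and 3 (against 3.94% of all tested genes) and 22 members passed the test (against 31.7%). Without clone 2, Ccne2 and Ccnf stayed at 2-fold (against 1.64% of all genes), and without clone 3 the 10 members named above did (against 6.78%).

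Of 18 other genes of the same pathway, 17 could be tested, and 13 of them passed the test between libraries, beside 62.5% of all tested genes. Of the 17, 6 were lowest in clone 1 and 9 were highest there, beside 39.4% and 37.6% of all tested genes. At 2-fold there were 3, beside 7.93% of all tested genes. Cdkn2a, which encodes the CDK4/6 inhibitor p16 and the p53 activator p19-ARF from overlapping exons, had 2349, 834 and 1118 counts in clones 1, 2 and 3, and was 2.56-fold higher in clone 1 than in clone 2. Cdkn2b, the gene of the inhibitor p15, had 1708, 729 and 1033 counts (2.13-fold), again highest in clone 1. Cdc20, an activator of the anaphase-promoting complex in mitosis, went the way of the G2/M members, with 1232, 2289 and 2150 counts (2.05-fold). The INK4 gene Cdkn2b was thus highest in the clone in which the INK4 gene Cdkn2c was lowest. So was Cdkn2a, but its counts do not separate p16 from p19-ARF. The INK4 gene Cdkn2d was too low to be tested.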

How the data were processed

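RNA-seq of 3 WT MEF clones was analysed. Per the methods of the study, the authors aligned single-end reads with TopHat (2.0.0), which called Bowtie (0.12.7) and, for file handling, SAMtools (0.1.16), and counted them on mm10 genes with HTSeq, while the submitters' processing notes name mm9. The annotation and strand setting are not given in the sources used here. The deposited table holds their whole-number read counts by gene, with no normalization.

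From these counts, CPM were computed with TMM library sizes (edgeR 4.0.16, R 4.3.3). Genes with 10 counts or more in every clone were tested with a Pearson chi-square test (2 degrees of freedom, Benjamini-Hochberg adjusted p-value threshold 0.05), since 1 library per clone leaves no replicates for edgeR's test. Whether the clones came from separate embryos is not stated. Lengths and positions came from GENCODE M21 (GRCm38). Shared stretches are those of 86 nt that match another gene's transcript with at most 2 mismatches. The named genes are all members, with values in every clone for those at 2-fold, those at either end of a family and those under 1 CPM; of the other genes of the pathway, those with the 2 largest folds, and Cdc20, which was named after its values were seen. Ratios between members were chosen after their counts had been seen. The members and lists were chosen with earlier results of these data known. The procedures were tried on simulated data. For the chi-square test these held counting error and planted 2-fold changes only. How the test behaves with a further spread between clones was not simulated. Alternatives were DESeq2 1.42.0 size factors, total counts, other thresholds, pseudocounts and lengths, removal of a GC and length trend, and leaving out each clone.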

Additional observations from a re-analysis of the deposited data

How the results depend on the processing

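The count of expressed members, the counts of members that differed between libraries and that were lowest in clone 1, and the phase medians stayed within 1.5 times their value or within the spread between clones under DESeq2 size factors, total counts, other thresholds and pseudocounts, and removal of a GC and length trend, where these were run. The count of members at 2-fold, 10 in the main analysis, was also 10 with DESeq2 size factors and was 11 with total counts. It fell to 7 when 1 CPM was added to each level before the fold was taken. Leaving out each clone in turn gave 43 expressed members throughout, 22 to 36 members that differed and 0 to 10 at 2-fold. The distance between clones ran from 0.078 to 0.19 on the log2 scale for G1 (0.20 with all clones), 0.17 to 0.71 for G1/S (0.71), 0.26 to 0.92 for G2/M (0.91) and 0.090 to 0.21 for members of no single phase (0.24), and the lowest value of each came without clone 1.

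Family shares depend on the length used. Not divided by length, the share was 30.4% for Ccnb2, 64.8% for Ccnd2, 30.0% for Cdc25b, 68.4% for Cdk1, 98.5% for Cdk4, 68.0% for Cdkn1b, 23.4% for E2f4, 58.6% for Lin54, 41.7% for Rbl2 and 86.5% for Tfdp1. Per kb of the longest-coding transcript, it was 41.5% for Ccnb2, 46.2% for Ccnd2, 29.6% for Cdc25b, 54.4% for Cdk1, 32.1% for E2f4, 49.3% for Lin54, 70.7% for Pkmyt1 and 81.5% for Tfdp1. Per kb of exon, Lin54 had 63.7% and Pkmyt1 57.6%. With a clone left out, the mean share of the remaining clones cannot differ from that of all clones by more than their spread. Leaving out clones was therefore no check on the shares. No paired analysis was possible because there is 1 group.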
